A study of Mus musculus with 17 samples.

Results

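The 8 genes described here encode subunits of voltage-gated sodium channels and were chosen by name as candidate targets of drugs related to the vinca alkaloids. They are Scn1a, Scn2a, Scn3a, Scn8a and Scn9a, which encode pore-forming alpha subunits, and Scn2b, Scn3b and Scn4b, which encode beta subunits. All 8 were among the 78298 genes listed in each library, and all 8 were among the 16153 genes tested. The series holds 17 poly(A) RNA libraries of tissue labelled locus coeruleus, a brainstem nucleus, from male C57BL/6 mice. Of these, 6 came from untreated controls, 5 from mice given vindeburnol, a synthetic compound of the vinca family, and 6 from mice given VB-127, which the labels call its derivative. Each compound was dissolved in water and given once daily by oral gavage at 20 mg/kg for 5 days, and tissue was taken 24 h after treatment. The study was set up to look for what vindeburnol and related molecules act on. No group received gavage without a compound, so an effect of a compound and one of gavage cannot be told apart. Whether libraries are separate animals is not stated, and p-values then cover only the spread between these libraries, which may be technical.

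Voltage-gated sodium channels open when a neuron depolarizes and carry the inward current that forms the upstroke of the action potential. An alpha subunit makes the pore, and beta subunits change its gating and its placement at the membrane. Channels gather at the axon initial segment and at nodes of Ranvier, where ankyrin and spectrin hold them. Vinpocetine, another compound related to the vinca alkaloids, is known to block sodium channels. Block of a channel protein need not change its transcript, and only transcripts were measured here.

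Upstream sequences of 4 members are printed because they belong to the pair that varied most closely together and to the pair that, after median-ratio scaling, varied least together. The first pair is Scn1a and Scn8a, and the second is Scn2b and Scn4b, which are next to each other among the protein-coding genes of chromosome 9. Each sequence is the 250 bases before a transcription start listed by RefSeq in GRCm38.p6, read 5′ to 3′ on the strand of the gene. Capitals mark CpG dinucleotides. Scn8a has 2 listed starts, and the window of the first is shown.
Scn1a (chr2:66440838-66441087, strand -): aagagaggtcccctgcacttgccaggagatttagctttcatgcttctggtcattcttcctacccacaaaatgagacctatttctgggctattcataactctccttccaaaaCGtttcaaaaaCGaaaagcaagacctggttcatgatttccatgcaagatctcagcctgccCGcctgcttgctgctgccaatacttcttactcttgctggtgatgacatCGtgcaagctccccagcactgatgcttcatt
Scn8a (chr15:100870395-100870644, strand +): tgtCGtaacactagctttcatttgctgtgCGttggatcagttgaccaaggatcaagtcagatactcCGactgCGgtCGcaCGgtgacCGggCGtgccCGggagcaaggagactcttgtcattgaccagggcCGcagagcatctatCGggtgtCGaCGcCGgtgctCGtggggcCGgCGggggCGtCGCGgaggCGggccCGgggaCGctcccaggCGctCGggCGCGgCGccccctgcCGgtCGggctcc
Scn2b (chr9:45117626-45117875, strand +): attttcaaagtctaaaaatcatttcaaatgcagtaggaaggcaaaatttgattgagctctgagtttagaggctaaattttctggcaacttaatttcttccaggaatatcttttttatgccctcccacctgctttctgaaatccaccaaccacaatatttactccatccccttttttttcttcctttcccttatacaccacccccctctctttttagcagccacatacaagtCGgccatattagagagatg
Scn4b (chr9:45138374-45138623, strand +): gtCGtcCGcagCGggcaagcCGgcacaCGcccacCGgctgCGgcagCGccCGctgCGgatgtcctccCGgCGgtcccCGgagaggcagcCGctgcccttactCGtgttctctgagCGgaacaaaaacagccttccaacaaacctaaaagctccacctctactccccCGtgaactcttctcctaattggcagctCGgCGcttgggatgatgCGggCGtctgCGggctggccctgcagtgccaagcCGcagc
Over 32841 mouse windows of this length the median number of CpG was 6. The Scn1a window held 4 CpG, the Scn8a window shown 30 and the window of the second Scn8a start 9. Between the neighbours, the Scn2b window held 1 CpG and the Scn4b window 23. A search on both strands covered 4 motifs, none of which occurred in the 4 windows shown. The GC box, GGGCGG, occurs in 32.7% of all windows of this length. The TATA box, searched as TATAAA, occurs in 12.4% of them. For the cyclic AMP response element, searched as TGACGTCA, the share is 1.55%, and for the E-box, searched as CACGTG, it is 6.02%. Over the 8 windows listed for 6 members, the only match was the TATA box before the second start of Scn2a. A missing match says only that these letters are not in this window.

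The values are TPM, which is scaled for transcript length, and levels are set side by side between genes on that scale. This has a limit, because the level of long transcripts relative to short ones differed between libraries, as described below. Longest transcripts were 8.39 to 11.4 kb for the alpha genes and 4.15 to 4.98 kb for the beta genes. Read depth is unknown, because TPM carries no counts. Bc1, a short neuronal RNA, took 16.1% to 35.3% of the TPM of a library. Defining markers of locus coeruleus neurons were low, with lower medians in the treated groups. Dbh, the enzyme that makes noradrenaline, ranged from 0.290 to 18.9 TPM in controls with a median of 1.90, from 0 to 1.72 after vindeburnol with a median of 0.0631, and from 0 to 2.36 after VB-127 with a median of 0.868. Its log2 difference from controls was -1.71 for vindeburnol (unadjusted p = 0.0122, adjusted p = 0.516 by limma) and -1.28 for VB-127 (unadjusted p = 0.0414, adjusted p = 0.483 by limma), so neither passed the test. Slc6a2, the noradrenaline transporter, had a median of 0.628 TPM in controls, 0.0511 after vindeburnol and 0.287 after VB-127. The mean log2(TPM + 1) of 5 noradrenergic markers averaged 2.04 in controls, 1.31 after vindeburnol and 1.54 after VB-127. The summed TPM of these 5 markers was 47.5 to 118 in controls, 29.2 to 98.8 after vindeburnol and 35.7 to 154 after VB-127. Th, which dopaminergic neurons also use, had a mean of 73.3 TPM over the 17 libraries but 17.8 TPM in control replicate 1. Without control replicates 1 and 6, which had the highest Dbh, the member values were further from 0 for VB-127, for instance 0.47 for Scn8a and 0.54 for Scn3a. For vindeburnol they were further from 0 for every member but Scn9a, for instance 0.34 for Scn8a and 0.37 for Scn3a. No member was called. This setting keeps control replicate 4, the lowest library for 7 members, and drops the highest control for Scn1a, Scn8a and Scn4b, control replicate 6. Without control replicate 4 instead, the VB-127 values were 0.15 for Scn8a and 0.19 for Scn3a. The part of control replicate 4 in the larger values was not tested. The part of this difference in noradrenergic markers in the sodium channel values was not tested. The 10 pan-neuronal markers summed to 3037 to 5002 TPM in controls, 3801 to 4392 after vindeburnol and 3740 to 4656 after VB-127. No cell type can be assigned to the sodium channel values. In bulk tissue, fewer cells of a type and less RNA per cell cannot be told apart.

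Scn2b had the highest level of the 8 genes, with a mean of 79.8 TPM over the 17 libraries (61.3 to 97.0). Scn4b followed with 61.0 TPM (43.4 to 87.6) and Scn1a with 48.7 TPM (26.6 to 61.0). These ranges overlapped, yet within a library Scn2b lay above Scn4b in 16 of 17 and Scn4b above Scn1a in 16 of 17. The part of transcript length in the order of beta and alpha genes was not tested. Scn8a had a mean of 29.3 TPM (14.1 to 37.9), Scn3b 28.7 TPM (20.4 to 36.7) and Scn2a 24.7 TPM (13.2 to 33.1). Scn8a exceeded Scn3b in only 9 of 17 libraries, so these neighbours in the order did not differ beyond their spread. Scn3b lay above Scn2a in 15 of 17 libraries. Scn3a, an alpha subunit known mainly from the embryonic and early postnatal brain, stood lower at 5.79 TPM (2.54 to 9.28). Scn9a, known from sensory and sympathetic neurons, was lowest at 1.25 TPM (0.534 to 1.72) and reached 1 TPM in 14 of 17 libraries. Scn2a lay above Scn3a, and Scn3a above Scn9a, in 17 of 17 libraries.

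**Figure D1:**
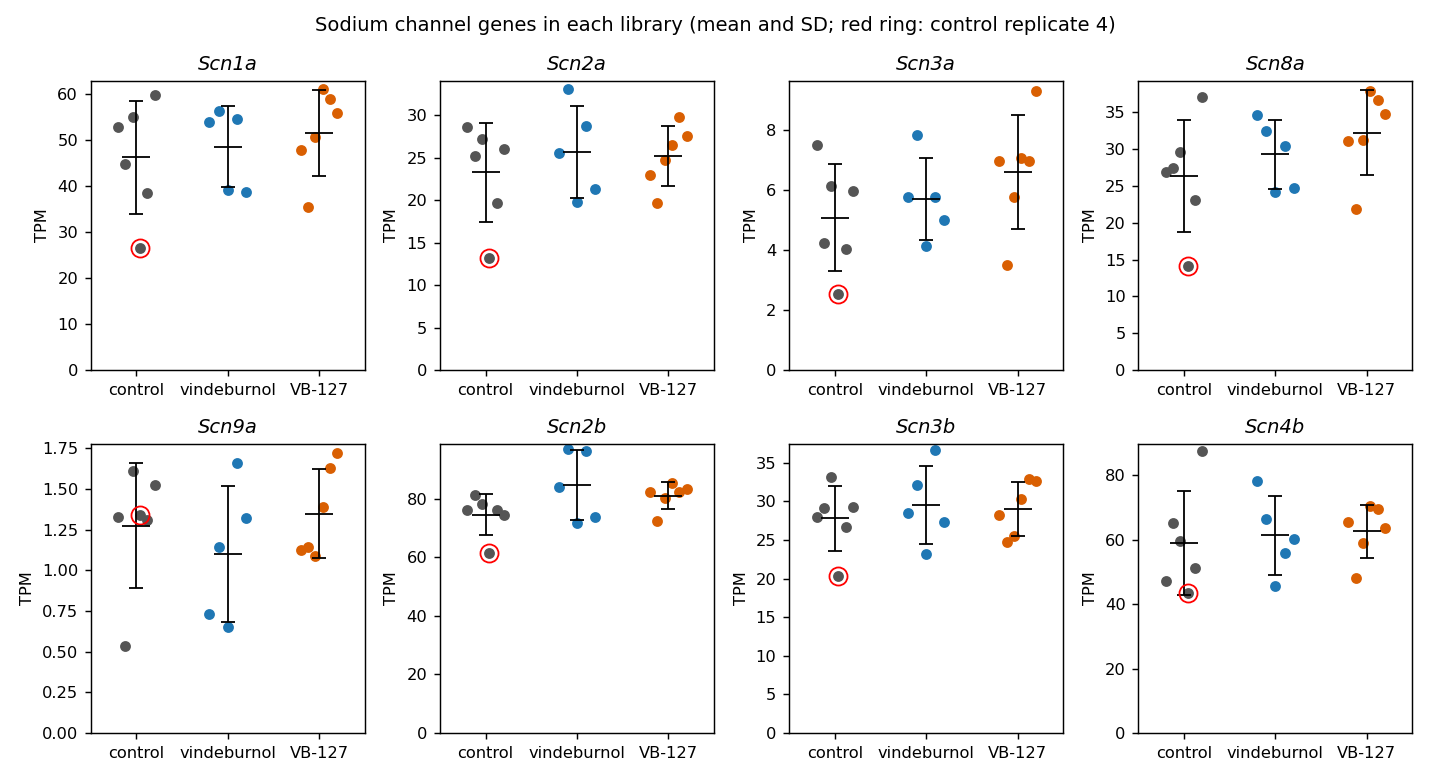
TPM of the 8 sodium channel genes (vertical axes, each from 0) in the control, vindeburnol and VB-127 libraries. Points are libraries, bars are the mean and SD, and the red ring marks control replicate 4, which had the lowest value of all 17 libraries for 7 of the 8 genes.

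None of the 8 genes passed the test in any of the 3 comparisons. Against controls, 0% of the 16153 genes tested were called after vindeburnol and 0.00619% after VB-127, which is 1 gene, the predicted gene Gm28119, and 0% were called between the compounds. A call is an adjusted p under 0.05 by limma on log2(TPM + 1) with Benjamini-Hochberg adjustment over all genes tested. At an unadjusted p under 0.05 the members called were also 0 in each comparison, beside 8.17% of all genes for vindeburnol, 10.2% for VB-127 and 3.38% between the compounds. That count was not 0 in all of the 34 other settings tried: it was 1 in 4 of them for vindeburnol, each time Scn2b, and 1 to 3 in 7 of them for VB-127, from Scn8a, Scn3a and Scn1a. The count of 3 came with pan-neuronal and myelin covariates, and counts of 2 came with library weights, without control replicates 1 and 6 together and without VB-127 replicate 2. The number over all genes moved too. For vindeburnol it was 1319 in the fit described above and 808 to 2056 in the other settings. For VB-127 it was 1648 and 1095 to 2366. The member counts are therefore not read as a result about the members. No member had groups that failed to overlap, beside 0.52%, 0.669% and 0.39% of all genes in the same order. Both treated groups are set against the same 6 controls, so the first 2 comparisons are not independent.

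Scn1a encodes an alpha subunit whose loss of function causes Dravet syndrome and which fast-firing neurons rely on. Controls ranged from 26.6 to 59.6 TPM with a median of 48.8. The vindeburnol libraries read 53.9, 56.3, 39.1, 54.4 and 38.6 TPM, and VB-127 libraries ranged from 35.4 to 61.0 with a median of 53.2. Each group thus held libraries both above 50 and below 40 TPM, and the groups overlapped. Control libraries averaged 46.2 ± 12.2 TPM (SD, n = 6), vindeburnol libraries 48.5 ± 8.82 (SD, n = 5) and VB-127 libraries 51.5 ± 9.34 (SD, n = 6). The fitted log2 difference from controls was 0.10 (SE 0.18, adjusted p = 0.916 by limma) for vindeburnol and 0.18 (SE 0.17, adjusted p = 0.693) for VB-127. Without control replicate 4 the vindeburnol difference was -0.0488 and the VB-127 difference 0.0361, so the sign of the first and most of the size of the second rested on that library.

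Scn8a encodes the main alpha subunit of nodes of Ranvier in adult nerve. Its controls ranged from 14.1 to 37.1 TPM with a median of 27.2, the vindeburnol libraries read 34.6, 32.5, 24.1, 30.5 and 24.8 TPM, and the VB-127 libraries ranged from 21.8 to 37.9 with a median of 32.9. The lowest library was a control, but 1 control also lay above every vindeburnol library. Control libraries averaged 26.4 ± 7.60 TPM (SD, n = 6), vindeburnol libraries 29.3 ± 4.66 (SD, n = 5) and VB-127 libraries 32.2 ± 5.80 (SD, n = 6). The log2 difference from controls was 0.19 (SE 0.18, adjusted p = 0.811 by limma) for vindeburnol. For VB-127 it was 0.31, with a 95% interval of -0.05 to 0.68 (adjusted p = 0.543 by limma), and 5 of 6 libraries lay above the control mean. Without control replicate 4 these values were 0.02 and 0.15.

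Scn2a encodes the alpha subunit that occupies the axon initial segment early in development and unmyelinated axons later. Its medians were nearly equal at 25.6 TPM in each group. Controls ranged from 13.2 to 28.6 TPM, the vindeburnol libraries read 25.6, 33.1, 19.8, 28.8 and 21.4 TPM, and VB-127 libraries ranged from 19.7 to 29.8. The control mean of 23.3 ± 5.83 TPM (SD, n = 6) was pulled down by 1 library at 13.2. The log2 difference was 0.16 (SE 0.17, adjusted p = 0.836 by limma) for vindeburnol and 0.14 (SE 0.16, adjusted p = 0.754) for VB-127, and without control replicate 4 these were 0.01 and -0.01.

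Scn3a had the largest fitted difference of the 8 genes, for VB-127 against controls, and also the widest interval. Its controls ranged from 2.54 to 7.49 TPM with a median of 5.11, the vindeburnol libraries read 5.76, 7.82, 4.14, 5.77 and 4.98 TPM, and the VB-127 libraries ranged from 3.50 to 9.28 with a median of 6.97. The highest library was VB-127 replicate 6, while VB-127 replicate 2 was the second lowest of all, so the group spanned nearly the whole range. The log2 difference was 0.34 (95% interval -0.10 to 0.77, adjusted p = 0.565 by limma) for VB-127, with 5 of 6 libraries above the control mean, and 0.17 (-0.28 to 0.63, adjusted p = 0.862) for vindeburnol. Without control replicate 4 these were 0.19 and 0.03.

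Scn9a was near the filter of 1 TPM, where log2(TPM + 1) understates differences. Its controls ranged from 0.534 to 1.61 TPM with a median of 1.34. The vindeburnol libraries read 0.731, 1.14, 0.652, 1.66 and 1.32 TPM, and VB-127 libraries ranged from 1.09 to 1.72 with a median of 1.26. It was the only member whose fitted value lay below 0 for vindeburnol, at -0.12 (95% interval -0.48 to 0.25, adjusted p = 0.888 by limma) with all libraries on the TPM scale. With 1 library left out this value ran from -0.23 (without control replicate 2) to -0.0358 (without vindeburnol replicate 3). For VB-127 the value was 0.06 (-0.29 to 0.41, adjusted p = 0.904), and -0.0512 without control replicate 2.

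Scn2b encodes a beta subunit bound to the alpha subunit by a disulfide bridge. Its controls ranged from 61.3 to 81.3 TPM with a median of 76.0, the vindeburnol libraries read 84.1, 97.0, 71.8, 96.1 and 73.9 TPM, and the VB-127 libraries ranged from 72.5 to 85.4 with a median of 82.3. After vindeburnol, 3 libraries lay above every control and the other 2 lay below the control mean. Control libraries averaged 74.5 ± 6.90 TPM (SD, n = 6), vindeburnol libraries 84.6 ± 11.9 (SD, n = 5) and VB-127 libraries 81.0 ± 4.50 (SD, n = 6). Scn2b had the smallest unadjusted p of the members for vindeburnol: the log2 difference was 0.17 (95% interval -0.02 to 0.36, unadjusted p = 0.0701, adjusted p = 0.624 by limma). For VB-127 the difference was 0.12 (-0.06 to 0.30, adjusted p = 0.600). Without control replicate 4 these were 0.12 and 0.0682. It varied least of the 8 genes, with a within-group SD of 0.14 on the log2(TPM + 1) scale, beside 0.39 for Scn3a and a median of 0.26 over all genes tested.

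Scn4b encodes another disulfide-linked beta subunit, known for its part in resurgent sodium current. Its controls ranged from 43.4 to 87.6 TPM with a median of 55.4, the vindeburnol libraries read 78.4, 66.6, 45.8, 55.9 and 60.3 TPM, and the VB-127 libraries ranged from 48.2 to 70.6 with a median of 64.5. Controls held both the lowest and the highest library of the 17. The log2 difference was 0.07 (SE 0.16, adjusted p = 0.930 by limma) for vindeburnol and 0.11 (SE 0.15, adjusted p = 0.780) for VB-127, and without control replicate 4 these were -0.00587 and 0.0350. Scn3b, a beta subunit that binds without a disulfide bridge, ranged from 20.4 to 33.2 TPM in controls with a median of 28.6, and from 24.7 to 32.9 after VB-127 with a median of 29.3. Its vindeburnol libraries read 28.4, 32.1, 23.2, 36.7 and 27.3 TPM, again within and around the control range. The log2 difference was 0.08 (SE 0.13, adjusted p = 0.892 by limma) for vindeburnol and 0.07 (SE 0.12, adjusted p = 0.839) for VB-127, and without control replicate 4 these were -0.000306 and -0.0146.

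As a list, 7 of the 8 genes had a fitted value above 0 for vindeburnol, where 69.7% of all genes tested did, and 8 of 8 for VB-127, where 79.4% did; under median-ratio scaling these counts were 6 and 6, and under median-ratio scaling without control replicate 4 they were 2 and 4. The median log2 difference of the members was 0.13 for vindeburnol, beside 0.08 over all genes, and 0.13 for VB-127, beside 0.11 over all genes. Without control replicate 4 the members' median was 0.00400 for vindeburnol, beside 0.0298 over all genes, and 0.0522 for VB-127, beside 0.0649. After median-ratio scaling of all libraries it was 0.0439 and 0.0201, beside 0.00361 and 0.0157 over all genes. Quantile normalization, which gives every library the same distribution, put the median over all genes for VB-127 at -0.00373.

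**Figure D2:**
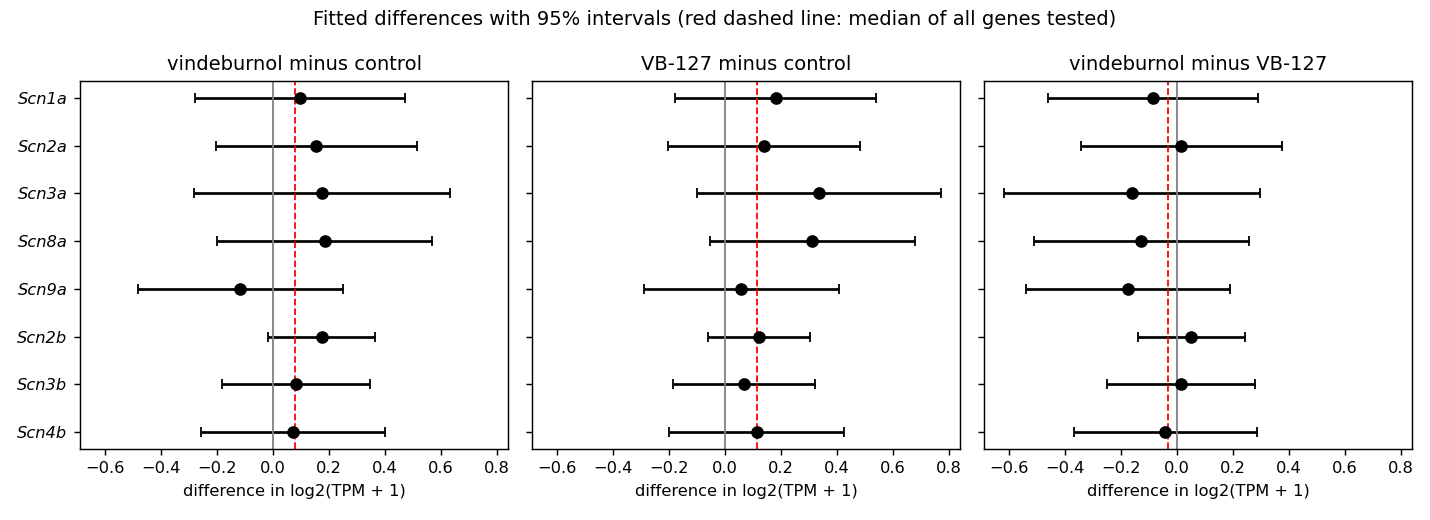
Fitted differences in log2(TPM + 1) (horizontal axes) with 95% intervals for the 8 genes in the 3 comparisons; the grey line is 0 and the red dashed line is the median of all genes tested. Every interval includes 0, and the widest belong to Scn3a.

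Vindeburnol and VB-127 were compared directly at the same dose, duration and sampling time, as the only pair of compounds. The log2 difference, vindeburnol minus VB-127, ran from -0.18 for Scn9a to 0.05 for Scn2b, and 3 of 8 genes were above 0, beside 38.9% of all genes tested. Every member had an adjusted p of 1.00 by limma. The intervals were wide: Scn1a could differ by -0.46 to 0.29, Scn8a by -0.51 to 0.26 and Scn3a by -0.62 to 0.30 on the log2 scale. They were narrowest for Scn2b, at -0.14 to 0.24. These data therefore do not show that the compounds act alike on these genes, and no difference between them passed the test.

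The shares of the alpha genes other than Scn9a varied less than the alpha sum. That of Scn1a, itself a large part of the sum, varied least. The 5 alpha genes summed to 57.8 to 134 TPM in a library, while Scn1a held 42.4% to 46.1% of that sum in every library. Scn8a held 23.0% to 28.7%, Scn2a 19.8% to 25.3%, Scn3a 4.15% to 7.19% and Scn9a 0.523% to 2.33%. Over the 17 libraries the coefficient of variation was 20.0% for the sum, 2.47% for the Scn1a share, 16.1% for that of Scn3a and 35.3% for that of Scn9a. In control replicate 4, which had the lowest alpha sum, the Scn1a share was 46.1% and the Scn8a share 24.4%, while the Scn9a share of 2.33% was the highest of the 17, followed by 1.51% in control replicate 5. The ratio of Scn1a to Scn8a averaged 1.77 ± 0.151 over the control libraries (SD, n = 6), 1.65 ± 0.104 over those of vindeburnol (SD, n = 5) and 1.60 ± 0.034 over those of VB-127 (SD, n = 6). The ranges overlapped, at 1.61 to 1.96, 1.56 to 1.79 and 1.53 to 1.63, and this ratio was formed after the values were seen, so it is given without a test. The 3 beta genes summed to 125 to 196 TPM, and the ratio of the alpha sum to the beta sum ran from 0.462 in control replicate 4 to 0.775 in control replicate 1. Control replicate 4 also had the lowest level of long transcripts, described below. The part of transcript length in this ratio was not tested.

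**Figure D3:**
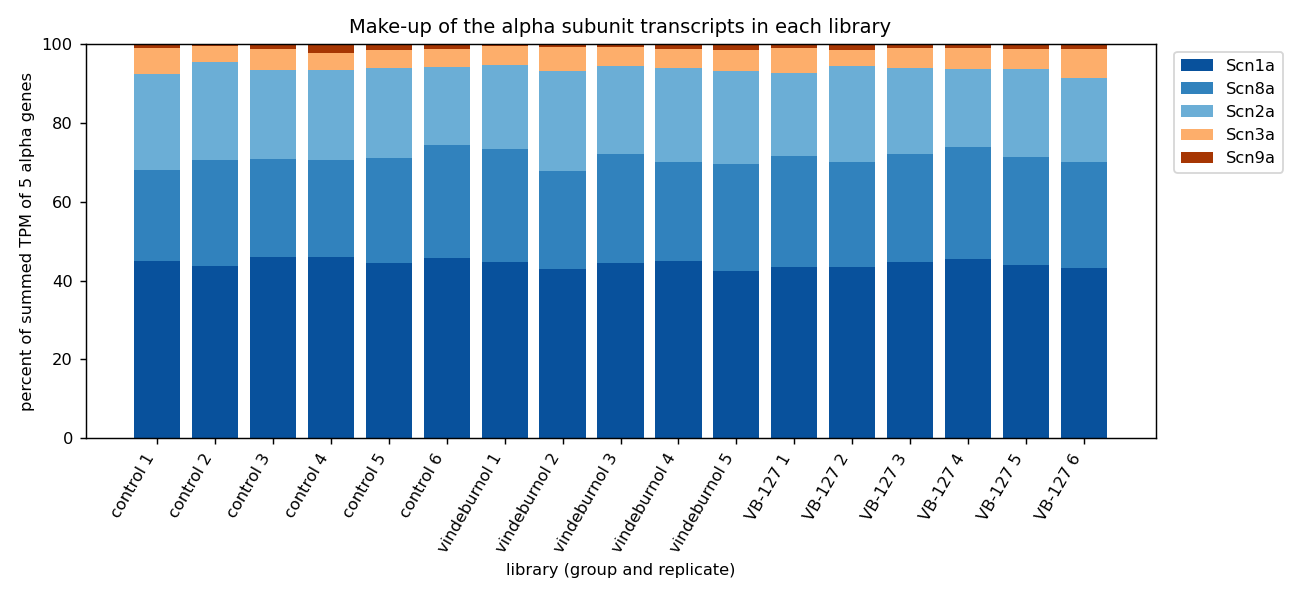
Percent of the summed TPM of the 5 alpha genes (vertical axis, 0 to 100) held by each gene in each of the 17 libraries. The Scn1a share stayed between 42.4% and 46.1%.

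The alpha genes other than Scn9a varied together from library to library. Over the 17 libraries the 6 pairs among Scn1a, Scn2a, Scn3a and Scn8a had Pearson r of 0.84 to 0.96 on log2(TPM + 1), and 0.69 to 0.90 after median-ratio scaling, which does not depend on the share taken by Bc1. The closest pair was Scn1a and Scn8a, at 0.96 and 0.90. Scn9a, which lies next to Scn1a among the protein-coding genes of chromosome 2, had r of 0.06 to 0.43 with the other 7 genes. Its level was near the filter of 1 TPM, and the part of this in its low r was not tested. The neighbours Scn2b and Scn4b had r of 0.50 in TPM and -0.44 after scaling. The upstream windows shown held unlike numbers of CpG in both pairs, 4 and 30 for Scn1a and Scn8a and 1 and 23 for Scn2b and Scn4b. A relation of CpG to these correlations was not tested. These values describe libraries that share tissue, preparation and scale, and no p is given.

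The alpha genes other than Scn9a moved with the level of long transcripts relative to short ones, and the beta genes did so less closely. For each library a long-transcript level was taken as the mean log2(TPM + 1) of 971 genes whose longest transcript has at least 7000 bases, sodium channel genes left out, minus that of 1719 genes of 1000 to 2000 bases. It ran from -1.46 in control replicate 4 to -0.82 in VB-127 replicate 4. Scn1a had r = 0.97 with it over the 17 libraries (Spearman rho 0.99), 0.98 within groups and 0.95 without the 2 libraries farthest from its median, which were control replicate 4 and VB-127 replicate 2. For Scn8a r was 0.93, for Scn2a 0.90 and for Scn3a 0.89. Scn9a, with a longest transcript of 9.84 kb, had r of 0.33, and 0.50 without the same 2 libraries. Its mean was only 1.25 TPM, and the part of this low level in its weaker correlation was not tested. The beta genes, with transcripts of 4.15 to 4.98 kb, had r of 0.70 (Scn2b), 0.82 (Scn3b) and 0.71 (Scn4b); without the same 2 libraries that of Scn2b was 0.46. Bc1 share, pan-neuronal markers and long-transcript level moved together, with Scn1a at r = -0.90 with the Bc1 share and 0.90 with the pan-neuronal mean. The beta genes followed the Bc1 share more closely than the long-transcript level. Their r with it was -0.85 for Scn2b, -0.86 for Scn3b and -0.77 for Scn4b. The part of RNA quality, dissection or scaling in this pattern was not tested. With the long-transcript level as a covariate, chosen after the data were seen, the standard error for Scn1a shrank from 0.18 to 0.06 for vindeburnol against controls, and the difference was -0.04. For Scn8a after VB-127 the difference was 0.16 (SE 0.08, adjusted p = 0.505 by limma), and no member was called.

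**Figure D4:**
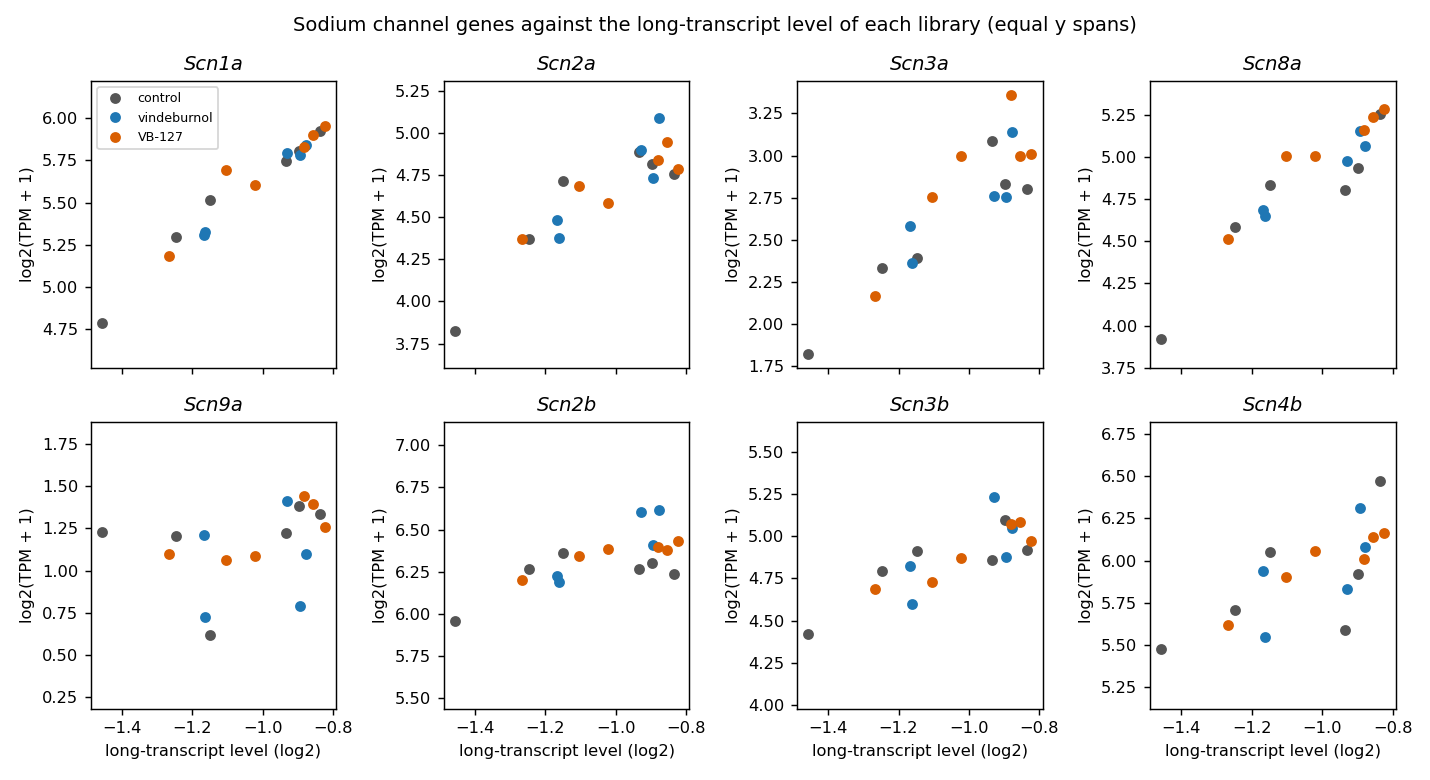
Level of each gene as log2(TPM + 1) (vertical axes of equal span) against the long-transcript level of the library (horizontal axes, log2), with libraries coloured by group. Scn1a lies close to a line (r = 0.97). Scn9a, with a mean of 1.25 TPM, does not (r = 0.33, and 0.50 without control replicate 4 and VB-127 replicate 2).

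Control replicate 4 was the lowest of the 17 libraries for 7 of 8 members. Its Scn1a value of 26.6 TPM compared with 35.4 in the next lowest library, and its Scn8a value of 14.1 TPM with 21.8. Scn9a was the exception: control replicate 4 read 1.34 TPM, and the lowest value, 0.534, was in control replicate 2. Control replicate 4 also had the highest Bc1 share, 35.3%, the lowest long-transcript level and the lowest pan-neuronal sum, 3037 TPM. Its Snap25, a synaptic vesicle fusion protein, was the lowest at 280.2 TPM beside a median of 881 over all libraries. Other pan-neuronal markers differed less: Syp was 676 TPM beside a median of 800. Stmn2 was lowest in vindeburnol replicate 3, and Nefl and Tubb3 in control replicate 1. The mean log2(TPM + 1) of astrocyte markers, 5.81, and that of microglia markers, 3.93, were also lowest in control replicate 4.

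Among other genes of the family, Nalcn, a sodium leak channel that sets resting excitability, ranged from 16.1 to 29.8 TPM and had r = 0.95 with the long-transcript level. Its log2 difference from controls was 0.10 (SE 0.15, adjusted p = 0.891 by limma) for vindeburnol and 0.12 (SE 0.14, adjusted p = 0.744) for VB-127. Scn7a, a sodium-sensing relative, ranged from 0.484 to 1.15 TPM and was not called in any comparison. The muscle gene Scn4a and the sensory neuron genes Scn10a and Scn11a did not exceed 0.029, 0.056 and 0.147 TPM.

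All 22 genes listed as channel partners (fibroblast growth factor homologous factors, ankyrins, spectrin, node proteins, calmodulins, ubiquitin ligases and others) were tested, and none was called in any comparison. For vindeburnol against controls, 17 of 22 had values above 0, beside 69.7% of all genes tested, and the smallest unadjusted p values belonged to Cntnap1, Sptbn4 and Calm3. Cntnap1, a protein of the junction beside the node, was at 82.7 ± 12.0 TPM (SD, n = 5) against 66.4 ± 14.1 in controls (SD, n = 6), a log2 difference of 0.33 (unadjusted p = 0.0360, adjusted p = 0.582 by limma). It was the only partner under 0.05 unadjusted, beside 8.17% of all genes. For VB-127, 21 of 22 had values above 0, beside 79.4% of all genes. After median-ratio scaling these counts were 13 of 22 and 13 of 22, and without control replicate 4 they were 11 of 22 and 13 of 22. The smallest unadjusted p values for VB-127 belonged to Cntn2, with a log2 difference of 0.24 (adjusted p = 0.498 by limma), then Cntnap1 with 0.27 and Calm3 with 0.11. Between the compounds the leading values were -0.43 for Ank2, -0.42 for Tnr and -0.30 for Kcnq3, each with an adjusted p of 1.00 by limma.

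After median-ratio scaling, each member was set beside the genes whose pattern over the 17 libraries was most like its own. For the alpha genes and Scn3b these included genes with transcripts of over 7 kb, and for Scn2b and Scn4b none was longer than 5.22 kb. Scn1a was most like Dnm3 (r = 0.95), Osbpl6 and Map2 (both 0.94). Scn8a was most like Kcna2 (0.93), an axonal potassium channel, then Hipk2 (0.92) and Gramd1b (0.91). For Scn2a these were Nr2c2, Frmpd3 (both 0.92) and Arhgef12 (0.91), and for Scn3a Arhgap21 (0.91), Sestd1 (0.90) and Braf (0.89). Scn9a was most like Irs4 (0.83), with Tcf4 and Cdc14b at 0.81. Among the beta genes, Scn2b was most like Tlnrd1 (0.88), Tmem132e (0.83) and Lars2 (0.82), Scn3b like Pnma2 (0.81), Ptpn13 (0.80) and Adgra3 (0.79), and Scn4b like Klf3 (0.88), Sarm1 (0.84) and Rufy3 (0.80). By rank some were weaker: Spearman rho ran from 0.54, for Tcf4 with Scn9a and Rufy3 with Scn4b, to 0.95 for Map2 with Scn1a. It was 0.58 for Adgra3 with Scn3b and 0.62 for Lars2 with Scn2b. The Pearson values are the highest correlations out of all genes tested, given as a description.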

How the data were processed

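The authors deposited TPM values for 78298 genes in each of 17 libraries; reads were aligned with STAR and quantified with Salmon on GRCm39, per the submitters' processing notes. Whether counting used strand, and how reads were divided between similar alpha genes or overlapping antisense genes, is unknown from the sources used here. A second table with the same values was not used. Depth is unknown, so precision rests on the spread between libraries.

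Genes with at least 1 TPM in at least 5 libraries (16153) were fitted as log2(TPM + 1) by limma 3.58.1 under R 4.3.3. The model held the group and no other term over the 17 libraries, with trended and robust eBayes. The pseudocount of 1 makes fold changes of low genes too small. Tests were two-sided with Benjamini-Hochberg adjustment over all genes tested and a call at 0.05. The fit was also run on simulated data with independent noise for each gene. Those data lack the variation that genes share between these libraries, so they cannot show how the fit behaves under it. Replicate numbers were not stated to pair libraries and were not in the fit.

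The members and gene lists were chosen with earlier results of these data known. Named genes were all members, per member the 3 genes of highest Pearson r (mean of at least 2 TPM, predicted names left out), per comparison the 3 partner or other sodium genes of smallest p, and tissue markers. Gm28119, the long-transcript level with its length bounds, the ratios and shares, the marking of CpG (chosen after the motif search gave 1 match) and the 4 windows printed were chosen after values were seen. Transcript lengths are from GENCODE M21 and were found for 94.7% of genes tested. Upstream windows are from RefSeq (GRCm38.p6), matched by symbol for 6 of 8 members; because the build differs from that of the files, they are not placed on the files' coordinates. Alternatives covered the pseudocount, filter, scaling, covariates, moderation, weights, the replicate number as a block, a fit of only the groups compared, and leaving out single libraries; 3 were added after the data were seen. Some genes that the rule takes are left out of the text.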

Additional observations from a re-analysis of the deposited data

Results flagged for a closer look

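In 36 groups of 5 or 6 libraries examined (8 genes, the alpha and beta sums, the long-transcript level and the Bc1 share, each in 3 groups), 2 had a library far from the others; chance alone gives about 1 in 20. Scn9a in control replicate 2 was at 0.534 TPM, while the other 5 controls lay between 1.31 and 1.61. Scn2b in control replicate 4 was at 61.3 TPM, while the other 5 controls lay between 74.5 and 81.3.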

How the results depend on the processing

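Under 34 other settings, 0 of 813 refitted member differences crossed the threshold (lowest adjusted p 0.311 by limma). The sign changed in 51 of them, for 14 of 24 differences, and the cause was not tested. Some refits could not change a member's fitted difference. Among these were leaving out a library of a group not compared, plain moderation and a fit of only the groups compared. The 51 are therefore not a measure of how often signs change among refits that could move a value. With a filter of 5 TPM, Scn9a was not tested and has no value. For vindeburnol against controls, median-ratio scaling gave Scn4b -0.0106, quantile normalization Scn3b -0.0110 and Scn4b -0.0182, a total without Bc1 and mitochondrial genes Scn4b -0.00596, library weights Scn1a -0.0353, and the long-transcript covariate Scn1a -0.0398 and Scn4b -0.0123. Median-ratio scaling without control replicate 4 gave Scn1a -0.0774, Scn2a -0.0202, Scn8a -0.00317, Scn3b -0.0285 and Scn4b -0.0344. Leaving out the 2 libraries of lowest long-transcript level (control replicate 4 and VB-127 replicate 2) gave Scn1a -0.0488, Scn3b -0.000306 and Scn4b -0.00587. For VB-127 against controls, median-ratio scaling gave Scn9a -0.00947 and Scn3b -0.0422, quantile normalization Scn9a -0.0799 and Scn3b -0.0457, a total without Bc1 and mitochondrial genes Scn3b -0.0137, the long-transcript covariate Scn3b -0.0162, and pan-neuronal and myelin covariates Scn4b -0.0566. Median-ratio scaling without control replicate 4 gave Scn1a -0.0224, Scn2a -0.0651, Scn3b -0.0722 and Scn4b -0.0235. Between the compounds, library weights gave Scn2a -0.0872, Scn2b -0.00219 and Scn3b -0.0254, the pan-neuronal covariate Scn4b 0.0237, pan-neuronal and myelin covariates Scn2a -0.0767 and Scn4b 0.11, and leaving out the 2 libraries Scn2a -0.0505 and Scn3b -0.0289.

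Leaving out 1 library at a time gave, for vindeburnol against controls, Scn1a -0.0488 to 0.18 and Scn3b -0.000306 to 0.16 (lowest without control replicate 4) and Scn4b -0.0195 to 0.19 (lowest without vindeburnol replicate 1, and below 0 without control replicate 4). For VB-127 against controls it gave Scn2a -0.00764 to 0.21 and Scn3b -0.0146 to 0.12 (lowest without control replicate 4) and Scn9a -0.0512 to 0.10 (lowest without control replicate 2). Between the compounds it gave Scn2a -0.0774 to 0.10 (below 0 without vindeburnol replicates 2 or 4 or VB-127 replicates 1 or 2), Scn3b -0.0654 to 0.0945 (below 0 without vindeburnol replicates 2 or 4 or VB-127 replicates 2 or 3) and Scn4b -0.13 to 0.0576 (above 0 without vindeburnol replicate 3).

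Over all genes, calls for vindeburnol against controls went from 0 to 1 without Bc1 and mitochondrial genes, with library weights, with plain moderation and with the pan-neuronal covariate, and to 2 with pan-neuronal and myelin covariates and with the long-transcript covariate. Calls for VB-127 against controls went from 1 to 0 with a pseudocount of 0.1, no filter, a filter of 5 TPM, pan-neuronal and myelin covariates, median-ratio scaling without control replicate 4 and without the 2 libraries of lowest long-transcript level; they were 3 with library weights and 2 without control replicates 1 and 6 together and with only the 2 groups compared. They ranged from 0 to 1 with 1 library left out (0 without control replicates 4 or 5 or VB-127 replicates 4, 5 or 6). Between the compounds, pan-neuronal and myelin covariates gave 1 call. None of these was a member. Among genes at an unadjusted p under 0.05, 85.1% were higher after vindeburnol and 94.8% after VB-127; median-ratio scaling gave 52.3% and 56.8%.

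Same-numbered libraries had correlations of -0.195 to 0.111. Libraries of different numbers were not set beside them, so these values cannot show whether the numbers pair libraries. The numbers were left out of the fit because pairing is not stated. With the replicate number as a block, calls were 0, 0 and 0 in the 3 comparisons, and Scn4b changed sign between the compounds, to 0.0224.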
